A study of Homo sapiens with 10 samples.

Results

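The genes described here are 33 human genes for topoisomerases, for the removal of topoisomerases trapped on DNA, and for base excision and single-strand break repair. They were chosen by name out of 19974 protein-coding genes of the RefSeq annotation on GRCh38. The value given for each gene is its coverage, the percent of the gene, with 1 kb added at both ends, that lay under peaks of RNA-DNA hybrid signal.

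The signal comes from DRIP-seq, a method that uses the S9.6 antibody to capture RNA-DNA hybrids from sonicated nucleic acids of nuclei that had not been crosslinked. The cells were U2OS, a human osteosarcoma line, and the series concerns DNA breaks that arise during transcription when TDP1 is mutated. There were 3 libraries of cells labelled TDP1 H493R, the change behind the neurodegenerative syndrome SCAN1. SCAN1#1 cells were assayed in both experiments and SCAN1#2 cells in experiment 2 alone. The other 2 libraries came from wild-type (WT) U2OS cells in experiments 1 and 2. Every library was made with S9.6 antibody, and its replicate number is the number of its experiment. Experiment 1 used a different antibody lot from the mix of lots used in experiment 2, so experiment and antibody lot cannot be told apart. The labels do not say how the SCAN1 lines were made, whether each is a single clone, or whether replicates were separate cultures, and p-values measure only the spread between these libraries. The 5 input samples of the series are not analysed here.

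An RNA-DNA hybrid forms where a nascent transcript pairs with its template strand behind the polymerase, and the resulting structure is called an R-loop. Topoisomerases relieve the supercoils of transcription by cutting DNA while bound to its end, and an enzyme that becomes trapped in this state leaves a protein-linked break. TDP1 removes trapped topoisomerase 1, and the scaffold XRCC1, the poly(ADP-ribose) polymerases, polymerase beta and DNA ligases then restore the strand. Flap and structure-specific nucleases can remove the trapped end by another route.

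The deposited lists held 63456, 110745 and 89932 peaks in the SCAN1 libraries and 82545 and 89445 peaks in the WT libraries. Per-library values run in the order SCAN1#1 replicate 1, SCAN1#1 replicate 2 and SCAN1#2 replicate 2 for SCAN1, and replicates 1 and 2 for WT. To set libraries side by side, each list was restricted to its 63456 peaks of highest -log10 p, which covered 41.4, 46.5 and 40.7 Mb in SCAN1 and 42.7 and 43.9 Mb in WT. The weakest peak retained had a -log10 p of 3.87, 9.92 and 7.75 in SCAN1 and 6.13 and 7.69 in WT, so the lists are equal in length and not in stringency. Depth in reads was not among the deposited values used here, so no counting interval could be attached to a coverage value. Of 9 osteoblast and mesenchymal marker genes, 8 had a peak in each library, and COL1A2, a collagen gene of that list, had none in any. Of 9 markers of other cell types, 5 had no peak in any library (ALB, CD3E, HBB, MYOD1 and TSHB). EPCAM, of epithelium, had one in every library (6.72, 9.72 and 8.18% in SCAN1, 6.87 and 8.58% in WT), as did the neuronal SNAP25 (0.672 to 1.33% in SCAN1, 0.633 and 1.06% in WT), and PTPRC and GFAP had one in 2 libraries each. Peak coverage is not expression.

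Repair genes of this group carried peaks more often than protein-coding genes at large, in mutant and WT cells alike. A peak lay in 30, 30 and 27 of the 33 genes in SCAN1 libraries (90.9, 90.9 and 81.8%) and in 29 and 31 in WT libraries (87.9 and 93.9%). Over all protein-coding genes the share was 61.1, 64.9 and 65.6% in SCAN1 and 62.4 and 63.7% in WT. A similar share of the double-strand break and Fanconi repair genes, given under other observations, had a peak. The higher share is thus not particular to these 33 genes. Median coverage of the group was 5.87, 6.57 and 3.52% in SCAN1 and 4.59 and 4.60% in WT, against 0.751, 1.24 and 1.22% in SCAN1 and 0.847 and 1.12% in WT over all protein-coding genes. These are descriptions of the libraries with no test.

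Gene length bears on these values, since a short gene under a broad peak can be covered entirely. Among the 6 listed genes under 10 kb, median coverage was 65.5, 28.6 and 11.3% in SCAN1 and 39.1 and 27.9% in WT, whereas the median over all 5658 protein-coding genes of that class was 0 in all 5 libraries. Among the 17 of 10 to 50 kb it was 7.73, 6.75 and 4.36% in SCAN1 and 4.02 and 3.65% in WT, beside 1.98, 2.53 and 2.32% in SCAN1 and 2.08 and 2.26% in WT over the class. Among the 10 of 50 to 200 kb it was 1.66, 1.08 and 0.943% in SCAN1 and 0.620 and 1.23% in WT. Over the class as a whole it was 0.652, 1.21 and 1.17% in SCAN1 and 0.739 and 1.15% in WT, so the repair genes stood higher in SCAN1#1 replicate 1 and WT replicate 2 and lower in the other 3 libraries.

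A peak was present in all 5 libraries for 24 of the 33 genes. Mean coverage over the 5 libraries was at least 10% for 13 genes and at least 50% for MUS81 and APEX1. At the other end, 9 genes had a mean below 2% and were not tested between groups: TOP1, TOP2B, TDP1, APLF, POLB, ERCC6, ERCC8, XPA and RNF4. The window of 30 of the 33 genes also holds at least 1 other annotated gene, the exceptions being TOP2A, PARP1 and SUMO2, and the peak lists carry no strand, so a peak there cannot be assigned to one of the genes. In bulk libraries such as these, hybrids in fewer cells and fewer hybrids per cell cannot be told apart.

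**Figure D1:**
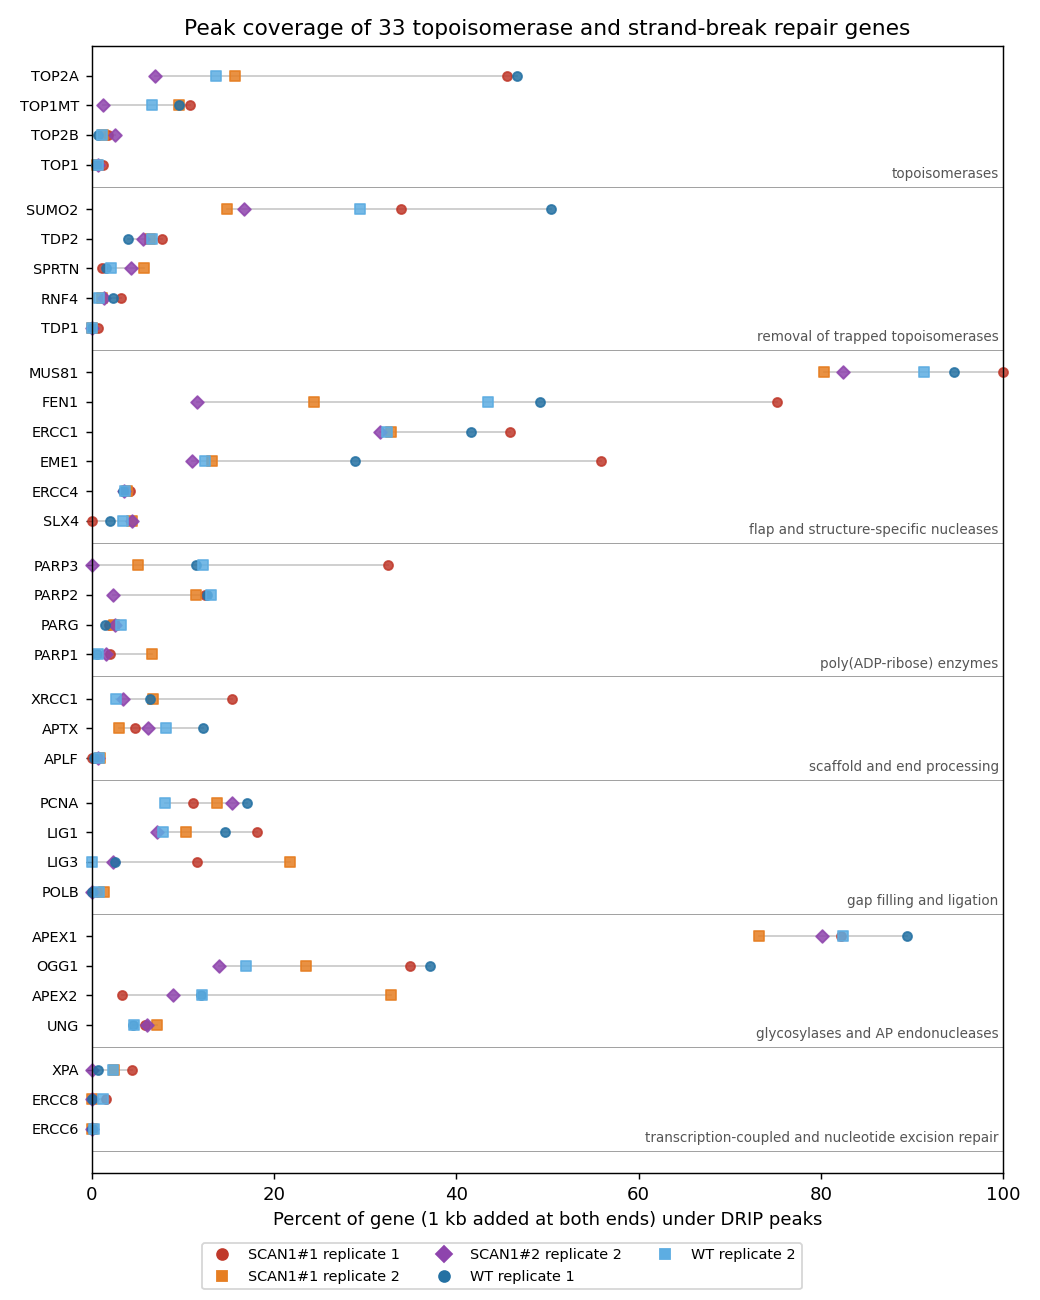
Coverage of each of the 33 genes (x axis, percent of the gene with 1 kb added at both ends under the 63456 strongest DRIP peaks), grouped by role, with 1 point per library and a grey line over their range. MUS81 and APEX1 stand between 73.2 and 100%, and TOP1, TDP1 and ERCC6 stay near 0. TOP2A, EME1 and FEN1 spread widely, with both libraries of experiment 1 (circles) above those of experiment 2 (squares and diamonds).

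A peak at the start was more frequent in these genes than over protein-coding genes at large. It lay within 1 kb of the annotated start in 67.7, 58.1 and 64.5% of the 31 genes with a known start in SCAN1 and in 54.8 and 61.3% in WT, against 35.6, 32.8 and 35.6% in SCAN1 and 34.3 and 30.9% in WT over 15813 protein-coding genes. Windows around starts made up 4.60% of the length of these genes and held 15.6, 18.6 and 25.3% of their covered bases in SCAN1 and 14.5 and 20.9% in WT. Over all protein-coding genes such windows made up 2.91% of the length and held 16.9, 17.8 and 20.6% of the covered bases in SCAN1 and 16.8 and 16.5% in WT, so relative to length the share at starts was lower in the repair genes in all 5 libraries. In bins of 100 bases, the average of the group was highest between 50 and 550 bases downstream of the start, at 48.0, 42.6 and 37.7% of a bin in SCAN1 and 40.7 and 41.0% in WT. Over all protein-coding genes the same maximum lay 350 to 450 bases downstream, at 21.5, 21.8 and 23.2% in SCAN1 and 20.6 and 18.7% in WT.

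**Figure D2:**
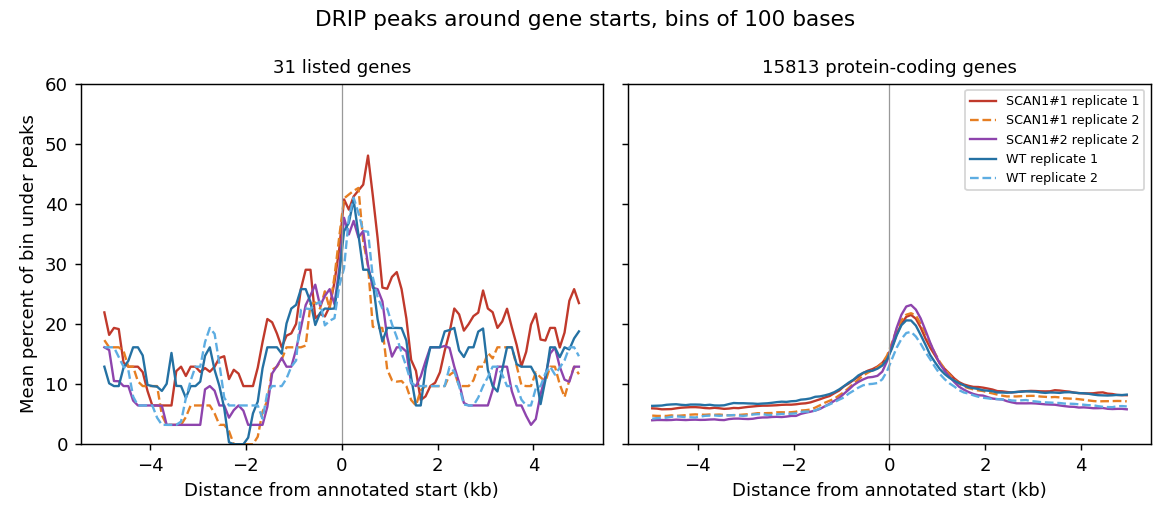
Mean percent of each bin of 100 bases under DRIP peaks (y axis) against distance from the annotated start in kb (x axis), for 31 of the 33 genes on the left and 15813 protein-coding genes on the right, with 1 line per library. All 5 lines are highest just downstream of the start in both panels, at 37.7 to 48.0% for the repair genes and 18.7 to 23.2% for all genes.

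A start peak was present in all 5 libraries for 14 genes: TOP2B, TDP2, SUMO2, FEN1, MUS81, EME1, ERCC4, PARG, XRCC1, APTX, LIG1, UNG, OGG1 and APEX1. It was absent from all 5 for TOP1, APLF, LIG3, ERCC1, ERCC6 and XPA, and present in some libraries for 11. At the other end of the gene, OGG1, MUS81, APEX1, SUMO2 and ERCC1 had a peak within 1 kb in all 5 libraries and 15 genes had none in any.

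Promoter sequence, taken from RefSeq on GRCh38.p14, was available for 31 of the genes, all but TOP1MT and POLB. Over the 300 bases from 250 before to 50 after the start, the median GC content was 64.3% for the group and 62.7% for 15813 protein-coding genes. The CpG ratio, observed over the number given by base composition, had a median of 0.899 for the group and 0.763 for all promoters. A GC box (GGGCGG) was present on either strand in 23 promoters of the group (74.2%), against 58.5% of all promoters. The palindromic motif of NRF1, a factor best known for genes of respiration, was present in 4 (12.9%), those of TDP1, TDP2, ERCC6 and SLX4, against 1.76% of all promoters. The ETS motif (CCGGAAGT) was found in 3 promoters (9.68%, against 6.20% of all promoters) and the CCAAT box (CCAAT) in 13 (41.9%, against 36.3%). E2F motifs (TTTGGCGC, TTTCCCGC or TTTCGCGC) occurred in 2, LIG1 and PCNA (6.45%, against 3.78%), and a TATA box (TATAAA) in that of TOP2A alone (3.23%, against 9.64%). A run of at least 3 Gs repeated 4 times within 30 bases, on either strand, was present in 4 promoters of the group (12.9%, against 30.1%). A match is a description of letters and not evidence of binding.

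Promoters of 6 genes are printed because these genes span the range of the measurements: SUMO2, LIG3 and FEN1 had the largest differences between genotypes in the fit without experiment as a block, MUS81 and APEX1 the highest coverage, and TOP1 is the enzyme whose trapped form TDP1 removes. Each run gives the 250 bases before the annotated start, 5′ to 3′ on the strand of the gene, with capitals for a GC box or CCAAT box on either strand. The start used for MUS81, 65860433, lies inside the gene boundaries given below, and so do its printed bases. The intervals on GRCh38.p14 are chr17:75182960-75183209 (minus strand) for SUMO2, chr17:34980262-34980511 for LIG3, chr11:61792661-61792910 for FEN1, chr11:65860183-65860432 for MUS81, chr14:20454976-20455225 for APEX1 and chr20:41028572-41028821 for TOP1, the last 5 on the plus strand.
SUMO2: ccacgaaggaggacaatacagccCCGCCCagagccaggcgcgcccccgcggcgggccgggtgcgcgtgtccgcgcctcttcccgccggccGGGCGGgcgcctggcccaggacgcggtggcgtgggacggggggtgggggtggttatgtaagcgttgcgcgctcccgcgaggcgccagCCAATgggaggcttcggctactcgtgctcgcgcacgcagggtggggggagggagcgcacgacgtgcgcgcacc
LIG3: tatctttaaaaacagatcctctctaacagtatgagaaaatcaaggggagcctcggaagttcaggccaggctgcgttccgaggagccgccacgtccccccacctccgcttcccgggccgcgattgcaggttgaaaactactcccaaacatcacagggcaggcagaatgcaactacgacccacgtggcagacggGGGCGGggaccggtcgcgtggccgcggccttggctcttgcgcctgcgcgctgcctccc
FEN1: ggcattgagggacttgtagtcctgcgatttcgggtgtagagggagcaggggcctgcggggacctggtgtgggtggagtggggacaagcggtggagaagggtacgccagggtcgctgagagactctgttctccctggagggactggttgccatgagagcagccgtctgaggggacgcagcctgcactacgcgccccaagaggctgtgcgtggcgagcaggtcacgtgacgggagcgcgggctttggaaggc
MUS81: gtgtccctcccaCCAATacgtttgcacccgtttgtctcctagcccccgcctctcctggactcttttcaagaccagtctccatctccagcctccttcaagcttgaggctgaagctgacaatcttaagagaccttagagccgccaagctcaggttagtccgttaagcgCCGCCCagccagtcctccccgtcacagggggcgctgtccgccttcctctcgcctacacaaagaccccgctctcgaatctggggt
APEX1: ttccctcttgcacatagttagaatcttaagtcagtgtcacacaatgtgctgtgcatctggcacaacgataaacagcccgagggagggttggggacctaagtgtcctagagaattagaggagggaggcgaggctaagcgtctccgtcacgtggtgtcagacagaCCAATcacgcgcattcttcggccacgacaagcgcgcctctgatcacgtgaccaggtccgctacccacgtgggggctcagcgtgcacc
TOP1: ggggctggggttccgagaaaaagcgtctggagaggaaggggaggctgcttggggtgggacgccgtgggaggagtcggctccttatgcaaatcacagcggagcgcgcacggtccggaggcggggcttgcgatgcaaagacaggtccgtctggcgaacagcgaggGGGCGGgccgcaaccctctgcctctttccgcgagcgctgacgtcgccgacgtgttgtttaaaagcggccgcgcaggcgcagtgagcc

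None of these bases of SUMO2, LIG3 and TOP1 lay under a peak in any library. The FEN1 promoter was covered over 100% in SCAN1#1 replicate 1 and WT replicate 1 and over 0% in the 3 libraries of experiment 2. MUS81 had 100, 100 and 63.2% of the printed bases under peaks in SCAN1 and 100 and 100% in WT, and APEX1 100, 70.4 and 38.4% in SCAN1 and 100 and 80.8% in WT. Over all 300-base promoters, a peak overlapped 13, 13 and 14 of the 31 in SCAN1 and 11 and 10 in WT, against 19.5, 19.5 and 19.2% of all promoters in SCAN1 and 19.3 and 16.8% in WT.

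Among the topoisomerases, only TOP2A had a mean coverage of at least 10%. TOP2A (chromosome 17, 40388525 to 40417896), which untangles replicated chromosomes, was covered over 45.6, 15.7 and 6.96% in SCAN1 and over 46.7 and 13.6% in WT. Both libraries of experiment 1 lay above the 3 of experiment 2 in either genotype, and the genotypes overlapped. Most of its peaks sat inside the gene, with regions shared by all 5 libraries 10419 to 14080 and 17429 to 25439 bases from the start and no start peak outside WT replicate 1. A region beyond the end of the gene, from 30103 bases onwards, was covered over 2308, 0 and 297 bases in SCAN1 and over 2459 and 1375 bases in WT. TOP1 (chromosome 20, 41028822 to 41124487), which relaxes supercoils through a single-strand cut, was covered over 1.29, 0.567 and 0.672% in SCAN1 and over 0.519 and 0.724% in WT, with overlapping groups. Each library had 1 or 2 TOP1 peaks, all between 59828 and 96946 bases from the start and of a fold enrichment, the authors' value for the peak, of at most 7.46. TOP2B, the form also found in non-dividing cells and singled out after its values were seen, ranged from 1.23 to 2.57% in SCAN1 and from 0.722 to 1.17% in WT, without overlap, and as deposited WT replicate 1 reached 1.64%, above SCAN1#1 replicate 2 at 1.23%. TOP1MT, the mitochondrial enzyme, ranged from 1.20 to 10.8% in SCAN1 and from 6.67 to 9.57% in WT.

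Of the genes that remove trapped topoisomerases, TDP1 itself had almost no peaks. TDP1 (chromosome 14, 89954968 to 90044764) was covered over 0.722, 0 and 0% in SCAN1 and over 0 and 0% in WT. With all peaks as deposited the values were 0.722, 1.42 and 0% in SCAN1 and 0.661 and 0.918% in WT, so weak peaks were present in 4 of the 5 libraries and none in SCAN1#2 replicate 2. The strongest reached a fold enrichment of 5.73. These values concern hybrids over the gene and do not check the genotype.

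SUMO2, a small protein joined to trapped topoisomerases before their removal, was the best covered gene of this role and had the largest difference between genotypes among the 24 tested. SUMO2 (chromosome 17, 75165586 to 75182959) was covered over 33.9, 14.9 and 16.7% in SCAN1 (mean 21.9 ± 10.5, SD, n = 3) and over 50.4 and 29.5% in WT (39.9 ± 14.8, SD, n = 2). SCAN1#1 replicate 1 lay above WT replicate 2, so the groups overlapped, while each SCAN1 library lay below WT of its own experiment, by 16.5, 14.6 and 12.7 points. The difference in the fit was -18.1 points (SE 10.5), with a limma p of 0.142 and an adjusted p of 1. With the experiment as a block it was -14.9 points, with a limma p of 0.0302 and an adjusted p of 0.751. Restricting the lists widened the gap within experiment 2, where the deposited values were 26.2 and 26.4% in SCAN1 and 29.5% in WT. A region starting 5232 bases from the start of the gene (chr17:75175197-75177727) was covered over 1375, 0 and 0 bases in SCAN1 and 2349 and 1112 bases in WT, and as deposited over 1375, 1677 and 1149 bases in SCAN1.

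The other genes of this role were lightly covered. TDP2, which removes topoisomerase 2 from DNA ends, ranged from 5.67 to 7.73% in SCAN1 and from 4.02 to 6.66% in WT, mostly from a region at its start. SPRTN, a protease for proteins crosslinked to DNA, ranged from 1.17 to 5.74% in SCAN1 and from 1.62 to 2.09% in WT. RNF4, a ubiquitin ligase that recognises SUMO chains, ranged from 1.15 to 3.25% in SCAN1 and from 0.847 to 2.34% in WT. The groups overlapped for all 3.

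The nucleases held the best covered gene of the set and the widest spread between libraries. MUS81 (chromosome 11, 65859674 to 65867653), the catalytic partner of EME1 in cutting branched DNA, was covered over 100, 80.3 and 82.4% in SCAN1 and over 94.6 and 91.4% in WT. The peaks belong to a region of 14373 bases (chr11:65858149-65872521) that also spans CFL1 and EFEMP2. EME1 (chromosome 17, 50373229 to 50381483) was covered over 55.8, 13.2 and 11.0% in SCAN1 and over 28.9 and 12.4% in WT, so both libraries of experiment 1 lay above the 3 of experiment 2. The EME1 start region, shared with MRPL27, was covered in all 5 libraries, and its strongest peak reached a fold enrichment of 16.0, 31.5 and 20.8 in SCAN1 and 14.2 and 12.8 in WT. The EME1 difference between genotypes was 6.01 points (SE 15.7; limma adjusted p = 1), and with experiment as a block 11.4 points (limma adjusted p = 0.766).

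FEN1 (chromosome 11, 61792911 to 61797238), which trims flaps left by strand displacement, was covered over 75.2, 24.4 and 11.6% in SCAN1 and over 49.2 and 43.5% in WT. SCAN1#1 lay 26.0 points above WT in experiment 1, whereas SCAN1#1 and SCAN1#2 lay 19.0 and 31.9 points below it in experiment 2. The pooled difference was -9.28 points (SE 20.6; limma adjusted p = 1), and with experiment as a block -3.43 points (limma adjusted p = 0.965). FEN1 gave the same coverage with the lists as deposited. Its start region also spans TMEM258 and MIR611.

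ERCC1 (chromosome 19, 45407334 to 45451547), partner of ERCC4 in a nuclease that cuts bubbles and 3′ flaps, was covered over 45.9, 32.9 and 31.7% in SCAN1 and over 41.6 and 32.4% in WT. Its shared peaks lay far from the annotated start, the only start used for this gene. They formed 4 regions present in all 5 libraries, between 22799 and 49548 bases from that start. The last of these (chr19:45401999-45415343) also spans POLR1G and PPP1R13L. ERCC4 showed the opposite pattern, with a single peak at its start in every library, 3.52 to 4.26% of the gene in SCAN1 and 3.48 to 3.65% in WT. That peak had a fold enrichment of 8.37, 23.0 and 24.9 in SCAN1 and 16.9 and 23.1 in WT. SLX4, a scaffold for these nucleases, ranged from 0 to 4.45% in SCAN1 and from 2.00 to 3.43% in WT.

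**Figure D3:**
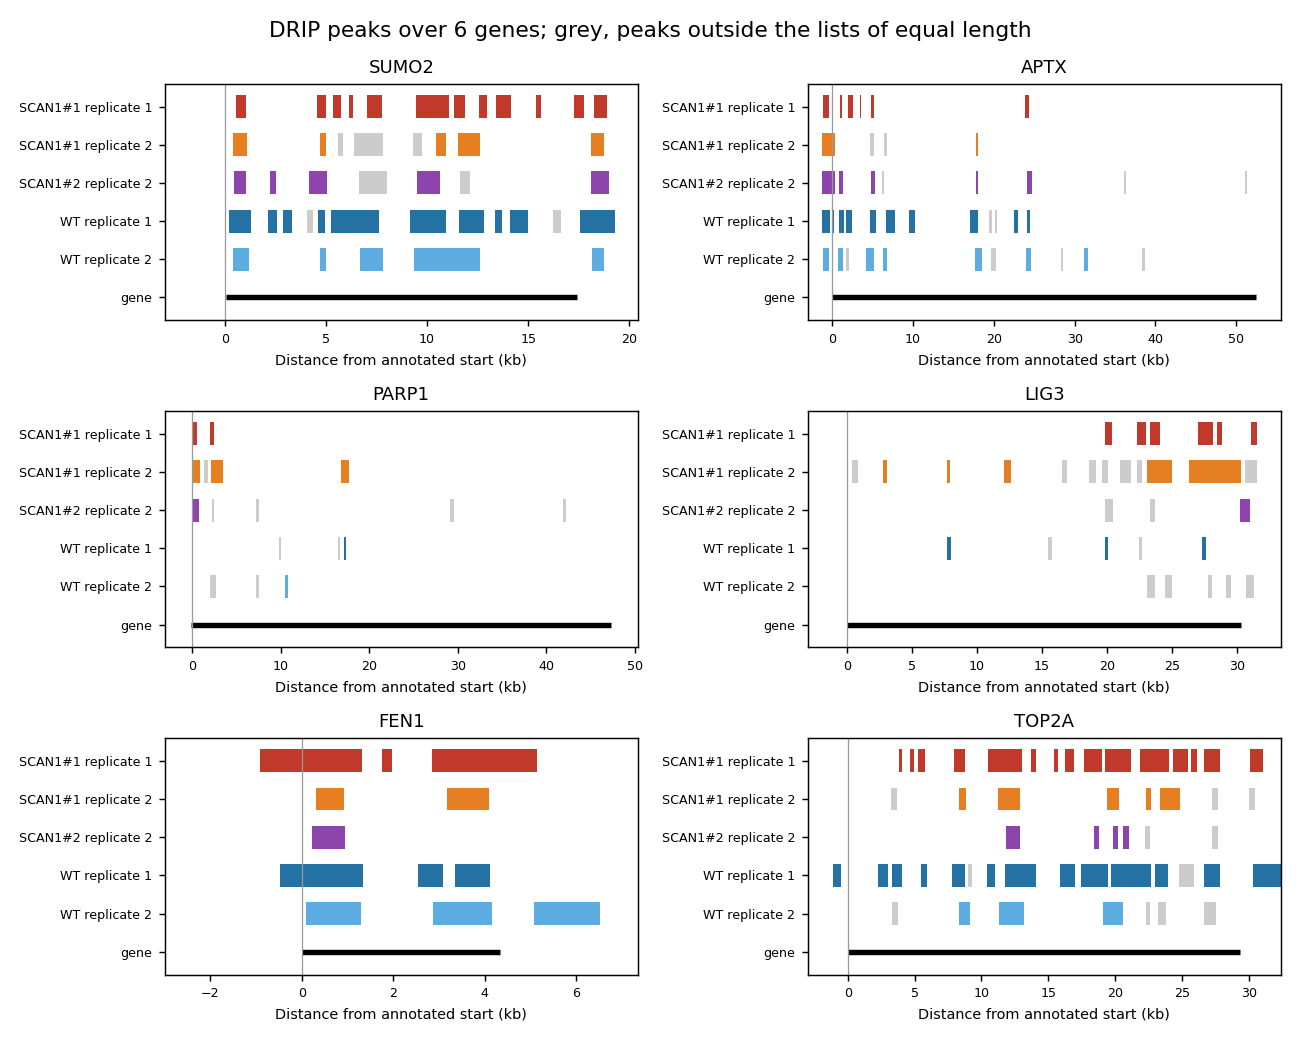
DRIP peaks over SUMO2, APTX, PARP1, LIG3, FEN1 and TOP2A, each a panel with distance from the annotated start in kb on the x axis and 1 row per library, coloured for peaks among the 63456 strongest and grey for the other deposited peaks, above a black bar for the gene. PARP1 has a peak at its start in the 3 SCAN1 rows and none in the 2 WT rows, and TOP2A has more peaks in the rows of replicate 1 than in those of replicate 2.

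Of the genes for poly(ADP-ribose), the polymer that marks breaks and recruits repair factors, PARP1 was one of 2 tested genes whose 3 SCAN1 libraries all lay above both WT libraries. PARP1 (chromosome 1, 226360691 to 226408093), the main break sensor, was covered over 2.06, 6.57 and 1.63% in SCAN1 (mean 3.42 ± 2.74, SD, n = 3) and over 0.607 and 0.646% in WT (0.626 ± 0.0272, SD, n = 2). The difference was 2.80 points (SE 1.66), with a limma p of 0.149 and an adjusted p of 1. Counted only within 1 kb of the gene ends, coverage was 14.4, 23.1 and 20.1% in SCAN1 and 0 and 0% in WT, a difference of 19.2 points, with a limma p of 0.00458 and an adjusted p of 0.945. With all peaks as deposited the groups overlapped, at 2.06, 7.52 and 4.41% in SCAN1 and 1.54 and 2.52% in WT. A region just inside the gene, 32 to 954 bases from the start (chr1:226407139-226408061), was covered over 576, 923 and 805 bases in SCAN1 and over 0 and 0 bases in WT. No deposited WT peak touched that region, so this contrast did not depend on the restriction of the lists. It is 1 of 2 regions, out of 199 over the 33 genes, present in all 3 SCAN1 libraries and absent from both WT libraries. It was singled out after its values were seen. Such regions were not counted over all genes, so the count has no background.

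PARP2 and PARP3, which respond to subsets of breaks, differed in their spread. PARP2 (chromosome 14, 20343635 to 20357904) was covered over 12.5, 11.4 and 2.31% in SCAN1 and over 12.7 and 13.1% in WT. All 3 SCAN1 libraries lay below both WT libraries, 2 of them by less than 2 points, and as deposited SCAN1#1 replicate 2 exceeded both WT libraries at 18.9%. PARP3 (chromosome 3, 51942363 to 51948867) was covered over 32.5, 5.07 and 0% in SCAN1 and over 11.4 and 12.2% in WT. In these restricted lists SCAN1#1 replicate 1 was thus the highest and SCAN1#2 replicate 2 the lowest of the 5. As deposited, PARP3 coverage was 32.5, 15.2 and 23.2% in SCAN1 and 15.8 and 16.4% in WT. SCAN1#2 replicate 2 then lay above both WT libraries. PARG, which breaks the polymer down, ranged from 1.93 to 2.53% in SCAN1 and from 1.47 to 3.19% in WT.

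XRCC1, the scaffold that gathers the repair enzymes, and APTX, which clears failed ligation products and is mutated in a recessive ataxia, had differences of opposite sign. XRCC1 (chromosome 19, 43543311 to 43575527) was covered over 15.5, 6.75 and 3.41% in SCAN1 and over 6.38 and 2.64% in WT. In these restricted lists the groups overlapped, and each SCAN1 library lay above WT of its own experiment, by 9.07, 4.11 and 0.769 points. As deposited, XRCC1 coverage was 15.5, 12.2 and 8.27% in SCAN1 and 7.79 and 7.17% in WT, without overlap. The difference with the deposited lists was 4.50 points, with a limma p of 0.177 before adjustment. The XRCC1 difference was 4.03 points (SE 3.90), with a limma p of 0.346 and an adjusted p of 1. With experiment as a block it was 5.28 points, with a limma p of 0.0812 and an adjusted p of 0.751. Its start region, shared with PINLYP, was covered in all 5 libraries.

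APTX (chromosome 9, 32972616 to 33025120), named here after its values were seen, was covered over 4.77, 2.99 and 6.22% in SCAN1 (mean 4.66 ± 1.62, SD, n = 3) and over 12.3 and 8.21% in WT (10.2 ± 2.87, SD, n = 2). All 3 SCAN1 libraries lay below both WT libraries, with the lists as deposited too (4.77, 4.52 and 7.77% in SCAN1, 13.4 and 11.4% in WT). The difference was -5.58 points (SE 2.06). In this fit, without experiment as a block, its unadjusted limma p of 0.0391 was the smallest among the 24 tested genes. Its adjusted p was 1. With the block its unadjusted limma p was 0.0467, above that of SUMO2 at 0.0302. The gap lay inside the gene. A region 6254 to 7816 bases from the start (chr9:33017304-33018866) was covered over 0, 0 and 0 bases in SCAN1 and over 1123 and 542 bases in WT, the only one of the 199 regions that both WT libraries had and all SCAN1 libraries lacked. Regions of this pattern were not counted over all genes. As deposited, weaker peaks covered 0, 411 and 192 bases of the APTX region in SCAN1. The region at the start, shared with DNAJA1, ran the other way in experiment 2, with 765, 1597 and 1663 bases in SCAN1 and 1210 and 704 bases in WT. With coverage counted only within 1 kb of the gene ends, the difference was accordingly 5.31 points. APLF, another end-binding repair factor, was covered over at most 0.921% in SCAN1 and 0.861% in WT.

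Gap filling and ligation held LIG3, the gene with the largest positive difference in the fit without experiment as a block. With the block EME1 stood at 11.4 points and LIG3 at 10.7. LIG3 (chromosome 17, 34980512 to 35010872), the ligase that partners XRCC1, was covered over 11.5, 21.7 and 2.33% in SCAN1 (mean 11.9 ± 9.72, SD, n = 3) and over 2.58 and 0% in WT (1.29 ± 1.82, SD, n = 2). SCAN1#2 replicate 2 lay between the WT libraries, so the groups overlapped, while each SCAN1 library lay above WT of its own experiment, by 8.96, 21.7 and 2.33 points. The difference was 10.6 points (SE 5.69), with a limma p of 0.118 and an adjusted p of 1. With gene ends only it was 16.0 points, with a limma p of 0.0456 and an adjusted p of 0.945. The peaks lay towards the 3′ end, where a region starting 26358 bases from the start of the gene (chr17:35006870-35011524), shared with RFFL, was covered over 1525, 3932 and 753 bases in SCAN1 and over 313 and 0 bases in WT. As deposited, coverage of the gene was 11.5, 33.6 and 5.31% in SCAN1 and 4.23 and 7.76% in WT, so SCAN1#2 then lay below WT in experiment 2.

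LIG1 (chromosome 19, 48115445 to 48170344), the ligase of replication, was covered over 18.1, 10.3 and 7.19% in SCAN1 and over 14.7 and 7.82% in WT, with both libraries of experiment 1 on top. As deposited, LIG1 coverage was 18.1, 18.2 and 10.1% in SCAN1 and 17.3 and 11.7% in WT. SCAN1#1 replicate 2 was then the highest. PCNA (chromosome 20, 5114953 to 5126622), the sliding clamp, was covered over 11.2, 13.8 and 15.4% in SCAN1 and over 17.1 and 8.07% in WT, the WT libraries being the highest and the lowest. POLB, which fills the gap of a single base, was at most 1.36% covered in SCAN1 and 0.807% in WT.

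Base excision repair genes ranged from some of the most covered to lightly covered. APEX1 (chromosome 14, 20455226 to 20457767), the main endonuclease at abasic sites, was covered over 82.3, 73.2 and 80.1% in SCAN1 and over 89.4 and 82.4% in WT. The SCAN1 libraries all lay below the WT libraries, SCAN1#1 replicate 1 by less than 1 point, and the difference was -7.42 points (SE 5.21; limma adjusted p = 1). The peaks form a region of 7001 bases (chr14:20454707-20461707) with OSGEP and PIP4P1. OGG1 (chromosome 3, 9749952 to 9791070), which removes oxidised guanine, was covered over 34.9, 23.5 and 13.9% in SCAN1 and over 37.1 and 16.9% in WT. It had 5 regions present in all libraries, and its strongest peak reached a fold enrichment of 11.7, 31.5 and 39.6 in SCAN1 and 9.05 and 25.9 in WT. Several OGG1 regions also span CAMK1, ARPC4 or TADA3.

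APEX2 (chromosome X, 55000363 to 55009057), a relative of APEX1 with strong exonuclease activity, was covered over 3.31, 32.8 and 8.94% in SCAN1 and over 12.0 and 12.2% in WT. The library of SCAN1#1 in experiment 2 was high and that of the same line in experiment 1 low. A region 3019 to 4208 bases from its start (chrX:55003382-55004571) was the other one present in all 3 SCAN1 libraries (354, 1190 and 436 bases) and in neither WT library, but a deposited peak of WT replicate 2 covered 684 bases of it. UNG, which removes uracil, was the other tested gene with all SCAN1 libraries above WT, at 5.87, 7.22 and 6.11% in SCAN1 and 4.59 and 4.60% in WT, and it was named after its values were seen. Its difference was 1.80 points (SE 1.29), with a limma p of 0.217 and an adjusted p of 1.

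The genes that start transcription-coupled and nucleotide excision repair were lightly covered. ERCC6, which senses a stalled polymerase, had none of the strongest peaks in the 3 SCAN1 libraries and was covered over 0 and 0.272% in WT. As deposited it was covered over 0, 0.892 and 0% in SCAN1 and over 0 and 0.654% in WT. ERCC8, its partner in a ubiquitin ligase pathway, reached 1.53% in SCAN1 and 1.29% in WT, and XPA, a damage-verification factor, 4.44% in SCAN1 and 2.34% in WT. None of the 3 was tested.

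None of the 33 genes was called different between SCAN1 and WT cells. In the limma fit over 8472 protein-coding genes with a mean coverage of at least 2%, 0 of the 24 tested members were called in either direction at an adjusted p of 0.05. Of all tested genes 0% were called higher and 0% lower, the smallest adjusted p being 0.358. At an unadjusted p under 0.05, 0 of the 24 lay higher and 1 (APTX) lower, against 1.94% higher (164 genes) and 1.55% lower (131 genes) of all tested genes. Of the 24 differences 13 were positive and 11 negative, with a median of 0.277 points, beside 0.0810 points and 51.5% positive over all tested genes. With experiment as a block, 0 genes were again called, the unadjusted counts were 298 higher and 220 lower over all tested genes, and 0 and 2 of the members (SUMO2 and APTX) lay on those sides. Simulated differences of 20 points in 200 of the 8472 genes were recovered for 42.5% of them, and differences of 40 points for 65.5%. In either case 4 unchanged genes were called, so in the simulation such shifts could pass unseen with 3 and 2 libraries. The simulation drew independent normal noise, with no experiment effect and no bounds on coverage. Real coverage cannot fall below 0, so these rates are not the power in the data.

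Counted without a fit, PARP1 and UNG had all 3 SCAN1 libraries above both WT libraries, 2 of 24 where 9.48% of all tested genes did, and PARP2, APTX and APEX1 had them all below, 3 of 24 where 6.86% did. Set against WT of the same experiment, PARP1, XRCC1, LIG3 and UNG were above WT in all 3 comparisons (4 of 24, against 19.4% of tested genes), and PARP2, APTX, APEX1 and SUMO2 below it (4 of 24, against 15.8%). With 24 genes, counts of 2 to 4 do not stand clear of those backgrounds, and the comparisons of SCAN1#1 and SCAN1#2 in experiment 2 share WT replicate 2. In experiment 1, 14 of 24 members of SCAN1#1 lay above WT (median 1.00 points), beside 50.2% of all tested genes. In experiment 2 the numbers were 15 (median 0.882 points) for SCAN1#1, beside 60.01% of all tested genes, and 7 (median -1.19 points) for SCAN1#2, beside 45.5%. Over all tested genes the medians of the same comparisons were 0.0220, 0.795 and -0.0783 points.

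**Figure D4:**
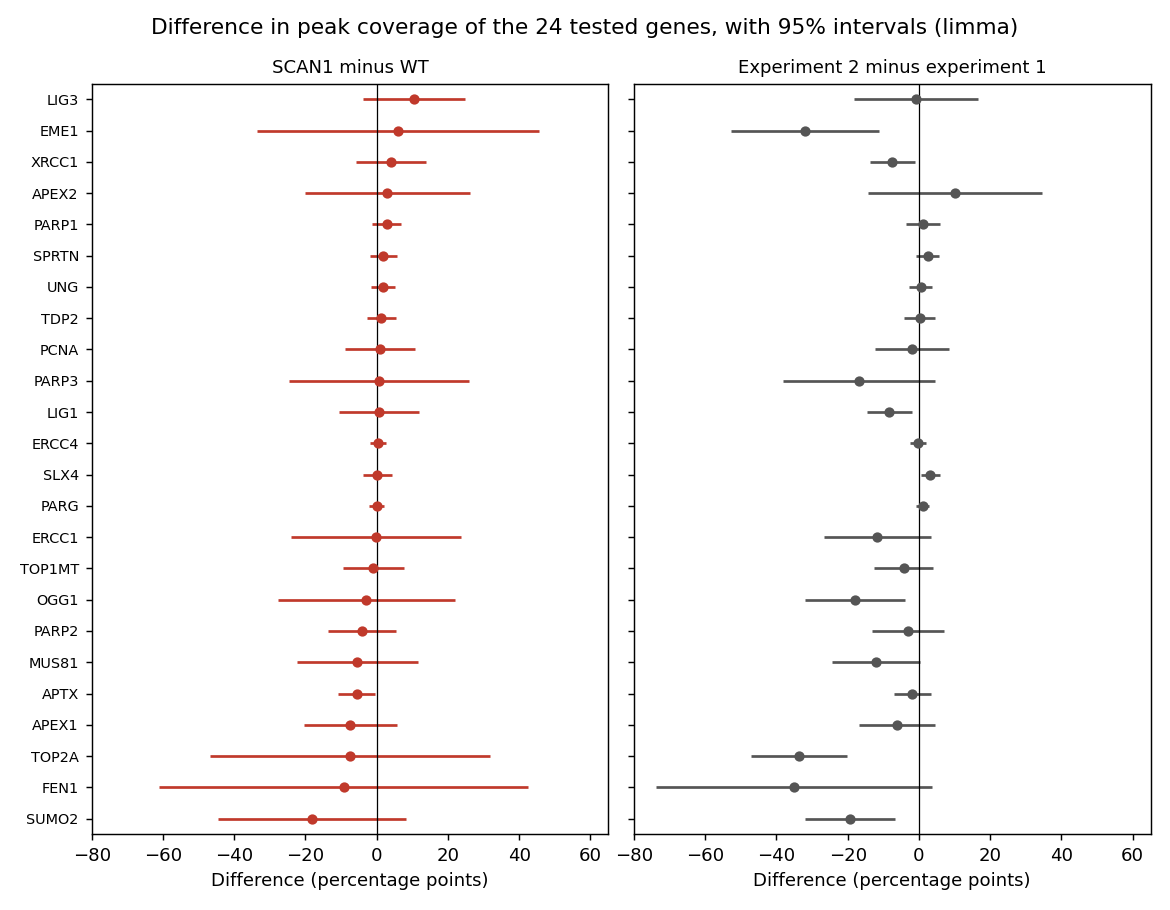
Differences in coverage in percentage points (x axis) with 95% intervals from limma for the 24 tested genes, SCAN1 minus WT on the left and experiment 2 minus experiment 1, adjusted for genotype, on the right. The left panel is from the fit without experiment as a block, where all intervals but that of APTX span 0. With the block, not drawn, the genotype interval of SUMO2 (-27.5 to -2.27) excludes 0 as well. TOP2A, EME1 and SUMO2 lie furthest below 0 among the experiment intervals that exclude it.

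For TOP2A, EME1 and FEN1 the fitted difference between experiments was larger in size than that between genotypes. The same held for other members, ERCC1, OGG1 and PARP3 among them. For APTX and LIG3, among others, the difference between experiments was the smaller one. The lines did not share the difference between experiments equally. From experiment 1 to 2, FEN1 went from 75.2 to 24.4% in SCAN1#1 and from 49.2 to 43.5% in WT. EME1 went from 55.8 to 13.2% in SCAN1#1 and from 28.9 to 12.4% in WT, with SCAN1#1 26.9 points above WT in experiment 1. Coverage in experiment 2 averaged 12.1% for TOP2A, against 46.1% in experiment 1, and 12.2% for EME1, against 42.4%. With genotype in the model, 0 of the 24 members were called at an adjusted p of 0.05, as were 0 of 8472 genes (0% higher and 0% lower), the smallest adjusted limma p among the members being 0.0958 for TOP2A, at -33.7 points (SE 4.94). At an unadjusted p under 0.05, 6 members were lower in experiment 2 (TOP2A, EME1, SUMO2, OGG1, LIG1 and XRCC1), against 17.8% of all tested genes, and 1 was higher (SLX4, named after its values were seen), against 3.71%. The median difference was -3.70 points for the members and -1.14 points for all tested genes, and 17 of the 24 were negative, beside 61.0% of all tested genes. All 3 libraries of experiment 2 lay below both of experiment 1 for 8 members (TOP2A, FEN1, MUS81, EME1, ERCC1, SUMO2, LIG1 and OGG1) where 28.1% of tested genes did, and above them for 3 where 13.2% did. With the deposited lists the libraries of LIG1 overlapped between experiments. FEN1 stood at -35.1 points (SE 14.2), with a limma p of 0.0662 and an adjusted p of 0.261. Antibody lot changed with the experiment, and its part in these differences cannot be told apart from it.

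The regions under peaks ranged from narrow ones of a single library to broad ones shared by all. Of the 199 merged regions over the 33 genes, 86 had a peak in 1 library, 42 in 2, 16 in 3, 22 in 4 and 33 in all 5. Regions found in all 5 were 2371 bases wide at the median, against 344 bases for those found in 1 library. Of the 32 regions found in all 5 and lying in a gene with a known strand, 14 came within 1 kb of the start. Another annotated gene was overlapped by 13 of the 33.

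Further genes of base excision and strand-break repair, written down as a list of 50 with earlier results of these data known, also had no call. Of 34 that could be tested, 0 were called, 14 differences were positive and 20 negative, and the median was -0.524 points. Among the positive differences, TOP3B, a topoisomerase that also acts on RNA, stood at 7.25 points and ERCC2, a helicase of TFIIH, at 7.03 points (limma adjusted p = 1 for both). NUDT1, which clears oxidised nucleotides, had the largest negative difference at -14.9 points, followed by XAB2, a splicing factor that binds XPA, at -14.5 points and the glycosylase gene MUTYH at -7.23 points. The single gene of the list with an unadjusted limma p under 0.05 was NEIL2, a glycosylase named after its values were seen, at 1.53, 6.78 and 5.17% in SCAN1 and 0 and 0% in WT, with a limma p of 0.0393 and an adjusted p of 1. Among 28 tested genes of double-strand break and Fanconi repair, 7 differences were positive and 21 negative, with a median of -0.698 points and 0 calls.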

How the data were processed

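DRIP-seq peak lists of 5 U2OS libraries were used, 3 labelled SCAN1 and 2 labelled WT. The submitters' processing notes name MACS3 3.0.0a6 among the tools, along with BWA 0.7.17-r1188 and SAMtools 1.9 and with deepTools 3.5.1 and FastQC 0.11.5, but give no roles. The build they name is hg38. Not given in the sources used here are the options of peak calling, whether inputs served as controls, and the read depth. Each deposited list, in the narrowPeak layout, gives per peak a score, a fold enrichment (a ratio), a -log10 p-value and a -log10 q-value, all by the authors. Peaks were called per library, as the deposited lists are 1 per library.

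Each list was cut by -log10 p to its strongest 63456 peaks, the number in the shortest list, and the percent of each protein-coding gene (RefSeq, GRCh38.p14, 1 kb added at both ends) under them was computed. Genes with a mean of at least 2% were tested two-sided in R 4.3.3 by limma 3.58.1, using lmFit and a trended eBayes. Adjustment was by Benjamini-Hochberg over all tested genes, and both SCAN1 lines formed a single group. The experiment contrast had genotype as a term. The procedure was tested on simulated data. Promoters and starts are those of RefSeq, with a single start per gene, so a peak at another start of a gene is not counted as a start peak. The start used can lie inside the gene boundaries, as for MUS81 and TDP1. Python 3.11.15, numpy 2.4.6, pandas 2.3.3 and matplotlib 3.10.9 were used.

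The members, roles and comparison lists were chosen with earlier results of these data known. Values in every library are given for TDP1, TOP1, PARP1, XRCC1, every member with a mean of at least 10% and the 3 largest differences each way. Of the further pathway list, the 3 largest each way are named, except a result that is not reported here. Genes named outside these rules are marked in the text. TOP2B, UNG and APTX are among them.

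Replicate numbers are experiment numbers in the labels, and so pair the libraries. Across genes, the correlation of deviations from group means was 0.612 (SCAN1#1 and WT, experiment 1), 0.325 (SCAN1#1 and WT, experiment 2) and 0.470 (SCAN1#2 and WT, experiment 2). With only 2 WT libraries, their deviations mirror each other, so SCAN1#2 and WT of experiment 1 gave -0.470. These correlations therefore depend on each other and do not test the pairing. Alternatives were the deposited lists, a -log10 q of at least 5, the strongest 30000 peaks, a log2 scale with a pseudocount of 1, other filters and gene windows, a replicate block, and leaving out each library.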

Additional observations from a re-analysis of the deposited data

Results flagged for a closer look

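For 8 of the 24 tested genes the SCAN1 libraries lay on opposite sides of WT in the 2 experiments, as they did for 26.8% of all tested genes. The difference from WT in experiment 1 minus the mean difference of the 2 lines in experiment 2 was 51.4 points for FEN1, 30.7 for PARP3, 15.35 for MUS81, 4.32 for TDP2, 1.13 for PARG, -12.5 for PCNA, -3.41 for SPRTN and -3.01 for SLX4. In experiment 1, SCAN1#1 stood at 26.0 points from WT for FEN1, 21.05 for PARP3 and 5.35 for MUS81. In experiment 2, SCAN1#1 and SCAN1#2 stood at -19.0 and -31.9 points for FEN1, -7.10 and -12.2 for PARP3 and -11.0 and -8.95 for MUS81. For PARP3 this depended on the restricted lists. As deposited, SCAN1#2 replicate 2 stood at 23.2%, above WT replicate 2 at 16.4%.

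For 5 of the 24 the libraries of SCAN1#1 lay above WT in both experiments and that of SCAN1#2 below it, as for 13.2% of all tested genes. The mean difference of SCAN1#1 minus that of SCAN1#2 was 15.2 points for EME1, 7.54 for TOP1MT, 3.63 for LIG1, 3.07 for ERCC1 and 0.619 for ERCC4. These contrasts between experiments and between lines were not tested, and the comparisons within experiment 2 share WT replicate 2. SCAN1#2 has a library in experiment 2 only.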

How the results depend on the processing

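No member was called under any alternative. Over all genes, SCAN1 against WT gave 0 calls in each direction except on the log2 scale, with 3 higher and 1 lower, and experiment 2 against experiment 1 gave 0 except on the log2 scale, with 2 lower. The replicate block gave 0 calls and changed no other call. Unadjusted counts moved more: without WT replicate 2 they were 112 higher and 345 lower, and without SCAN1#2 replicate 2 they were 260 and 96, against 164 and 131. For the experiment contrast they were 633 higher and 840 lower with the deposited lists and 203 and 857 without SCAN1#1 replicate 1, against 314 and 1506. The members lower by unadjusted p numbered 3 of 26 with the deposited lists, beside 840 of 9718 genes. In the main fit they numbered 6 of 24, beside 1506 of 8472 genes. They numbered 3 without SCAN1#2 replicate 2 and 4 without SCAN1#1 replicate 2. The counts over all genes for these leave-out settings are not given here, so those member counts have no background.

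The sign of single differences turned for SPRTN (-0.423 points) with the deposited lists. It turned for OGG1 (1.07), TDP2 (-1.58), TOP1MT (3.27), FEN1 (1.40) and PCNA (-0.541) with the strongest 30000 peaks, and for PARG (0.104) without the added 1 kb. On the log2 scale it turned for PARP3 (-1.12), PARG (0.0383), SLX4 (-0.237) and APEX2 (-0.207). With gene ends only it turned for OGG1 (9.43), PARP3 (-6.75), TDP2 (-1.09), TOP1MT (10.9), APTX (5.31), PARP2 (2.20) and PCNA (-3.16). With gene ends only, 2 of 28 tested members (PARP1 and LIG3) were higher by unadjusted p, beside 265 of 9305 genes. In the main fit these counts were 0 of 24 members and 164 of 8472 genes. SUMO2 stood at -7.67 and FEN1 at -4.45 points with gene ends only. With the replicate block the sign turned for OGG1 (0.114), SLX4 (-0.279) and ERCC1 (1.78). The cause was not tested.

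Leaving out each library in turn gave -12.9 to 7.21 points for OGG1, -9.26 to 6.97 for PARP3, -0.0493 to 2.59 for TDP2, -2.72 to 2.07 for TOP1MT, -0.871 to 0.843 for PARG, -28.3 to 3.46 for FEN1, -0.503 to 1.72 for SLX4, -24.0 to 9.09 for TOP2A, -8.57 to 14.3 for EME1, -4.78 to 4.43 for ERCC1, -2.78 to 4.07 for LIG1, -3.62 to 5.39 for PCNA and -5.93 to 8.82 for APEX2. The other 11 tested members kept their sign, with SUMO2 at -28.6 to -7.60, LIG3 at 5.64 to 15.4, XRCC1 at 0.571 to 6.59, PARP1 at 1.22 to 3.69, and APTX at -7.61 to -3.55 points. A lone WT library was assumed to vary like the SCAN1 libraries. Members with a peak numbered 25 to 33 per library over the alternatives. Peak lists without read depth limit all of these values, since a region just under the peak threshold counts as 0.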

Other observations

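In the list of double-strand break and Fanconi repair genes, a peak lay in 42, 44 and 41 of 49 in SCAN1 and in 42 and 46 of 49 in WT. Their median coverage was 2.88, 2.93 and 1.94% in SCAN1 and 3.19 and 2.76% in WT. XRCC3, a gene of homologous recombination named here after its values were seen, was covered over 27.1, 6.23 and 0% in SCAN1 and over 78.4 and 46.0% in WT, a difference of -51.1 points, with a limma p of 0.0126 and an adjusted p of 1. The same list's FANCA, of the complex that marks crosslinks and likewise named after its values were seen, was covered over 6.42, 5.08 and 3.10% in SCAN1 and over 11.8 and 8.83% in WT, with a limma p of 0.0353 and an adjusted p of 1.

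Among the mesenchymal markers, both genes given here were named after their values were seen. COL1A1, the main bone collagen, was covered over 26.4, 35.9 and 9.09% in SCAN1 and over 66.7 and 55.8% in WT, and THY1, a surface protein of mesenchymal cells, over 17.2, 20.3 and 19.0% in SCAN1 and over 51.1 and 44.1% in WT. Neither passed the adjusted threshold in limma (adjusted p = 1). Their part in the differences of the repair genes was not tested.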
